A study of Tupaia belangeri with 8 samples.

Results

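The miR-15 family and the cluster of miR-424, miR-503, miR-542 and miR-450 were followed through 6 miRNAs of the small RNA table, named by family and genomic cluster, with earlier results of these data known, and not by a threshold on their values. These were tch-miR-15a-5p, tch-miR-15b-5p, tch-miR-424-5p, tch-miR-503, tch-miR-542-3p and tch-miR-450a-5p (tch marks the tree shrew and is left out where a name is repeated), 6 of the 384 miRNAs listed. The libraries came from primary neurons isolated from the brain of neonatal tree shrews (Tupaia belangeri), a small mammal close to primates. In the METH group (4 libraries), 5 µl of methamphetamine, labelled as 100 mmol with no volume stated, was added to 995 µl of neuronal medium, and the PBS group (4 libraries) received medium alone after a rinse with PBS. Both groups grew in the same medium with 15% fetal bovine serum and were collected after 24 h. The study asks what accompanies neuronal damage by methamphetamine, a psychostimulant that releases dopamine. The labels do not state that replicates were different animals or cultures, and p-values then measure only how these samples vary, technical variation included.

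A miRNA represses the mRNAs that pair with its seed, a short stretch near its 5′ end, so miRNAs with the same seed share many targets. miR-15a, miR-15b, miR-16, miR-195, miR-424 and miR-497 share 1 seed in human, and miR-503 is grouped with them because it shares most of it. The family is best known for restraining the passage from G1 into S phase through cyclins and CDC25A, and for repressing the survival factor BCL2. miR-424, miR-503, miR-542 and miR-450 are, in human, cut from 1 long X-linked transcript, whereas miR-15a and miR-15b each lie in another transcript together with a copy of miR-16. The 6 miRNAs therefore allow a shared seed to be set beside a shared transcript: miR-424-5p and miR-503 have both, miR-15a-5p and miR-15b-5p have the seed alone, and miR-542-3p and miR-450a-5p have the cluster alone.

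The same row of cluster genes is annotated in the tree shrew. All 6 miRNAs matched a gene name in the RefSeq annotation of the TupChi_1.0 assembly. MIR450A-1, MIR450A-2, MIR542, MIR503 and MIR424 follow each other there with 0 other annotated genes between them, and HPRT1 and PLAC1 flank the row. MIR15B is listed beside SMC4, the gene that hosts it in human, and MIR15A beside KCNRG. No gene named for miR-16 is listed directly beside either, so their pairing with miR-16 was not seen in this annotation. MIR497 and MIR195 are also direct neighbours. The sources used here do not give the build behind the deposited table, so no coordinates are stated, and no mature sequences were used.

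Library totals ranged from 339243 to 7334789 reads, with the libraries numbered 4 the deepest in each group. On the first principal component of all tested miRNAs, which held 65.7% of the variance, PBS 1, PBS 3 and METH 3 lay from −18.64 to −13.03 and the other 5 from 6.34 to 11.94. These 3 libraries stood apart from the rest without following the treatment, and the fold changes and pair spreads below are also given without them. They were also the 3 shallowest, at 526031 (PBS 1), 388419 (PBS 3) and 339243 reads (METH 3). METH 1 came next, at 642982. The part of depth in this division was not tested. Of the neuron markers searched, 5 were in the table (miR-9-5p, miR-128, miR-129-5p, miR-218-5p and miR-7-5p), with a summed level of 13485 to 71993 normalised CPM in PBS and 26192 to 98985 in METH. miR-124, the defining neuronal miRNA, was searched too and was not among those found. Normalised CPM are counts scaled to a common library size with TMM, a correction for differences in composition between libraries. Its factors were 1.48, 1.84 and 1.12 in PBS 1, PBS 3 and METH 3, and 0.65 to 1.01 in the others.

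The 6 miRNAs together held 0.0432% to 0.121% of the reads of a library, and they differed widely in level. Over all 8 libraries, miR-450a-5p averaged 368 ± 239 normalised CPM, miR-15b-5p 264 ± 209 and miR-542-3p 136.9 ± 109.8 (SD, n = 8). miR-503 averaged 26.1 ± 16.5, miR-15a-5p 25.4 ± 15.3 and miR-424-5p 10.7 ± 8.48 (SD, n = 8). Mature miRNAs are of nearly the same length, so these levels are set side by side without a length term, but they also depend on how well each miRNA is joined to the adapters. miR-450a-5p was above miR-542-3p, its neighbour, in 8 of 8 libraries, and above miR-503 in 8 of 8. miR-15b-5p was above miR-15a-5p in 8 of 8 libraries, and miR-15a-5p was above miR-424-5p in 8 of 8. The order of miR-15b-5p and miR-542-3p was not settled, with miR-15b-5p higher in 4 libraries, and neither was that of miR-15a-5p and miR-503, with miR-15a-5p higher in 5. miR-15b-5p was the most abundant of the 6 in PBS 1, PBS 3 and METH 3, and miR-450a-5p was so in the other 5 libraries.

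In the seed family, tch-miR-15b-5p was the member with the clearest pattern over libraries. It had normalised CPM of 336, 96.7, 442 and 109 for PBS 1 to 4, and 119, 198.9, 681 and 127 for METH 1 to 4, from 49 to 677 reads. PBS 1, PBS 3 and METH 3 were the high libraries, and the 5 others reached at most 198.9. tch-miR-503 had 24.4, 25.7, 41.9 and 9.67 for PBS 1 to 4, and 16.8, 23.2, 57.8 and 9.60 for METH 1 to 4, from 8 to 60 reads. PBS 3 and METH 3 were its highest libraries and those numbered 4 its lowest. In the deposited TPM, which carry no composition correction, miR-503 was at 36.1, 77.2 and 64.9 in PBS 1, PBS 3 and METH 3 and at 7.61 to 23.5 in the others, so that PBS 1 also stood with the high libraries.

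miR-15a-5p and miR-424-5p did not show this pattern. miR-15a-5p, which is lost together with its neighbour miR-16 in human chronic lymphocytic leukaemia, had 25.7, 17.8, 9.78 and 26.1 normalised CPM for PBS 1 to 4, and 25.1, 26.1, 13.1 and 59.7 for METH 1 to 4, from 5 to 317 reads. Its lowest libraries in normalised CPM were PBS 3 and METH 3, from 7 and 5 reads, where miR-15b-5p was highest. In the deposited TPM its lowest library was PBS 2 at 11.6, with METH 3 next at 14.7. The place of PBS 3 and METH 3 as its lowest libraries thus turned on the scaling. tch-miR-424-5p, which represses cyclins and CDC25A together with miR-503, had 6.43, 3.95, 1.40 and 10.3 for PBS 1 to 4, and 8.38, 21.8, 7.88 and 25.4 for METH 1 to 4. Behind these levels lay 5, 2, 1 and 64 reads in PBS and 4, 15, 3 and 135 in METH. The single read in PBS 3 stands for 2.57 TPM with a 95% Wilson interval of 0.454 to 14.6, and like the other such intervals it covers counting error only. METH 2 and METH 4 lay above every PBS library, and METH 1 and METH 3 lay within the PBS range.

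Among the cluster members without the seed, miR-542-3p was the most variable, with a 35.9-fold range. tch-miR-542-3p, which represses the apoptosis inhibitor survivin in human cells, had 27.0, 233, 13.97 and 122 normalised CPM for PBS 1 to 4, and 283, 184, 7.88 and 224 for METH 1 to 4, from 3 to 1191 reads. Its low libraries were PBS 1, PBS 3 and METH 3, the same in which miR-15b-5p was high, and in the deposited TPM they were again its lowest, at 39.9, 25.7 and 8.84. tch-miR-450a-5p had 140, 620, 150 and 233 for PBS 1 to 4, and 773, 527, 220.8 and 277 for METH 1 to 4, from 84 to 1471 reads. Its lowest libraries in normalised CPM were also PBS 1, PBS 3 and METH 3, but in TPM these held 207, 275 and 248 and lay above PBS 4 at 197, so its place there turned on the scaling.

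Several markers of other cells moved with this division. The 5 neuron markers did not, with summed normalised CPM of 63663 (PBS 1), 13485 (PBS 3) and 82574 (METH 3), and of 25341 to 98985 in the others. The 3 fibroblast and smooth muscle miRNAs found had summed normalised CPM of 11295 (PBS 1), 18828 (PBS 3) and 12100 (METH 3), and of 45482 to 93700 in the others. The 4 epithelial miRNAs summed to 372 in PBS 1 and 457 in METH 3 but to 25.2 in PBS 3, and to at most 35.5 elsewhere. None of these 4 passed the count filter. The 2 microglia and leukocyte miRNAs found summed to 2105, 2598 and 4765 in PBS 1, PBS 3 and METH 3, their highest libraries, and to 493 to 1240 in the others. Of these 2, miR-155-5p passed the count filter and miR-142 did not. The 1 red cell miRNA found, miR-486-3p, did not pass the count filter. It was at 19.3, 11.2 and 55.2 in PBS 1, PBS 3 and METH 3, with 2.90 to 10.5 elsewhere. PBS 3 thus lay only just above METH 1, at 10.5. The 1 oligodendrocyte miRNA found, miR-219-5p, had reads only in the libraries numbered 4, the deepest, at 0.32 (PBS 4) and 0.75 (METH 4) normalised CPM. In every other library 1 read stood for at least 1.28 TPM, so 0 reads there do not show a lower level. The part of such cells in the levels of miR-15b-5p, miR-503 and miR-542-3p was not tested, and in bulk RNA fewer cells of a type and less RNA per cell cannot be told apart.

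**Figure D1:**
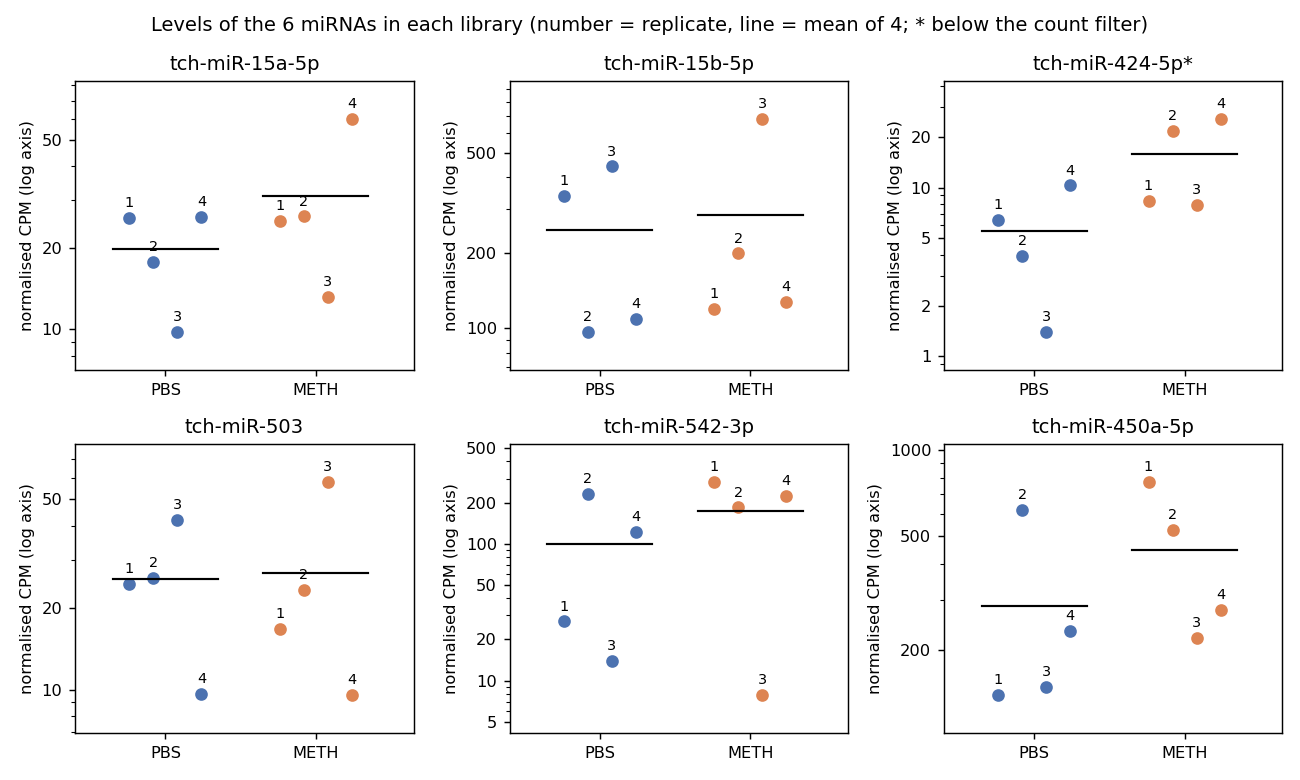
Normalised CPM (log axis) of the 6 miRNAs in each library, 4 PBS (blue) and 4 METH (orange), with the replicate number beside each point and a line at the mean of 4. miR-15b-5p is highest and miR-542-3p lowest in PBS 1, PBS 3 and METH 3, and the PBS and METH points overlap in every panel.

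The other family members in the table had few reads. miR-195-5p had 18, 1, 6 and 33 reads for PBS 1 to 4 and 12, 5, 4 and 38 for METH 1 to 4. miR-497-5p, its neighbour in the genome, had 30, 2, 2 and 5 in PBS and 4, 1, 13 and 7 in METH. On the scale of normalised CPM, miR-497-5p was highest in PBS 1 and METH 3, at 38.6 and 34.2, and did not exceed 8.38 elsewhere. miR-195-5p was highest in PBS 1 and METH 1, at 23.2 and 25.1. Both lay below the count filter. miR-16 was searched too and was not among those found. The miRNA reference behind the table is not given, so absence from the cells and absence from the reference cannot be told apart. A search for other miRNAs of the miR-424 and miR-503 cluster found 0 in the table. No values of the opposite arms of the 6 miRNAs were analysed here.

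METH and PBS overlapped for 6 of the 6 miRNAs, and none differed beyond the spread between libraries. With TMM scaling all 6 estimates lay above 0, but those of miR-15b-5p and miR-503 lay below 0 with each of the 3 other scalings run. In all, 126 of the 166 miRNAs tested lay above 0 with TMM, with a median log2 fold change of 0.21, while total counts, upper quartile factors and the size factors of DESeq2 moved all estimates by a median of −0.35, −0.16 and −0.15. edgeR's quasi-likelihood test called 0 of the 5 members that passed the count filter, against a background of 0% of all 166 miRNAs (0 at an unadjusted p under 0.05; DESeq2 called 0, with 1 unadjusted). The groups did not overlap for 0 of the 166, so 0% is also the background of that count.

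For the seed family, tch-miR-15a-5p averaged 19.8 ± 7.73 normalised CPM for PBS and 31.0 ± 20 for METH (n = 4 each, SD). Its log2 fold change of METH over PBS was 0.66 (SE 0.64, 95% interval −0.74 to 2.07, edgeR adjusted p = 0.999), and 0.11 without METH 4. miR-15b-5p had 246 ± 171 and 282 ± 268, a log2 fold change of 0.19 (SE 0.79, −1.54 to 1.93), which was −0.73 without METH 3 and −0.35 with total counts as the scaling. miR-503 had 25.4 ± 13.2 and 26.9 ± 21.4, a log2 fold change of 0.06 (SE 0.72, −1.52 to 1.64), which was −0.63 without METH 3 and −0.37 with total counts. No direction can be given for these 2. miR-424-5p lay below the filter and had 5.52 ± 3.799 and 15.9 ± 9.05. The same model with no filter gave it a log2 fold change of 1.38 (SE 0.91, −0.53 to 3.29, edgeR adjusted p = 0.999), from 1.05 without METH 4 to 2.15 without PBS 4.

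For the rest of the cluster, miR-542-3p had 98.9 ± 101 in PBS and 175 ± 118 in METH, a log2 fold change of 0.83 (SE 1.06, −1.498 to 3.15). It was 1.67 without PBS 2 and 0.46 without PBS 3. miR-450a-5p had 286 ± 227 and 449.5 ± 253, a log2 fold change of 0.65 (SE 0.68, −0.84 to 2.15), with 0.26 without METH 1 and 1.36 without PBS 2. Without PBS 1, PBS 3 and METH 3, the log2 fold changes were 0.66 for miR-15a-5p, 0.45 for miR-15b-5p, 1.23 for miR-424-5p, −0.10 for miR-503, 0.35 for miR-542-3p and 0.29 for miR-450a-5p. None of these passed either.

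**Figure D2:**
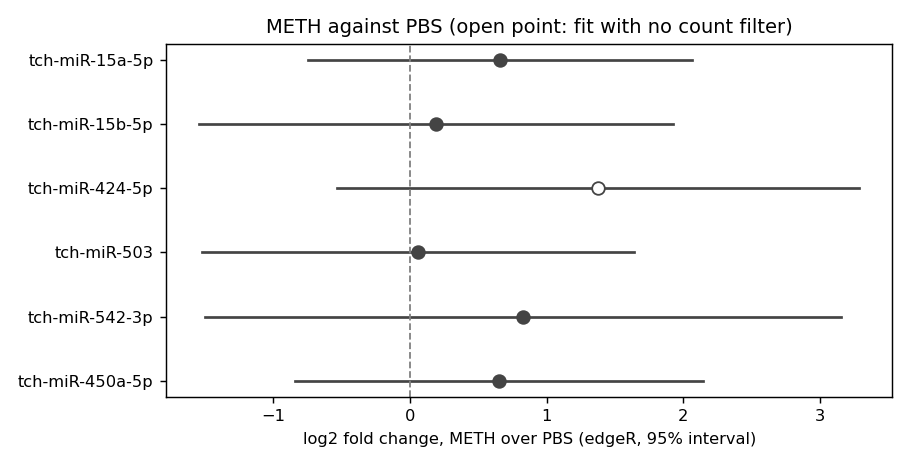
Log2 fold change of METH over PBS for the 6 miRNAs with the 95% interval of edgeR's fit over 4 libraries a group; the open point comes from the fit with no count filter. All 6 intervals include 0.

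The deep libraries numbered 4 gave the most precise single values, in deposited TPM. miR-424-5p was at 8.73 TPM in PBS 4 (Wilson interval 6.83 to 11.1) and 20.1 in METH 4 (17.02 to 23.8). miR-15a-5p was at 22.1 (18.9 to 25.8) and 47.3 (42.4 to 52.8), and miR-542-3p at 103 (96.0 to 111) and 178 (168 to 188). miR-503 was at 8.18 (6.36 to 10.5) in PBS 4 and 7.61 (5.79 to 10.003) in METH 4, and miR-15b-5p at 92.3 (85.6 to 99.5) and 101 (93.7 to 109), with overlapping intervals. miR-450a-5p was at 197 (188 to 208) and 219.5 (209 to 231). The intervals did not overlap for miR-424-5p, miR-15a-5p, miR-542-3p and miR-450a-5p, all higher in METH 4. This sets 1 library beside 1 library and says nothing of the conditions.

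By their medians over 8 libraries, pairs with a shared seed and pairs from the cluster kept no steadier ratio than pairs of known miRNAs in general, a description with no test. For each of the 15 pairs of members, the log2 ratio of their counts (0.5 added to each) was taken within every library, which removes the scaling, and its SD over the 8 libraries was used as the spread of the pair. The 6 pairs with a shared seed had a median spread of 1.60 (0.63 to 1.83), the 6 pairs from the cluster 1.58 (1.23 to 2.75) and the 4 pairs with neither 1.70 (1.06 to 3.01). The pair of miR-424-5p and miR-503 counts in both classes. The median counting error was 0.61 for seed pairs and 0.59 for cluster pairs, and none was computed for pairs in general. Leaving out miR-424-5p, the 8-library medians were 1.59 for seed pairs and 1.44 for cluster pairs. Over all 6328 pairs of the 113 known miRNAs tested, the median was 1.41. Without PBS 1, PBS 3 and METH 3, the medians were 0.72, 0.89 and 0.78, beside 0.86 over all pairs, so that only the median of the cluster pairs stayed above. The cluster pairs were split there. Those with miR-424-5p, which lay below the count filter, had spreads of 1.13 to 1.46, and those without it had 0.40 to 0.64, below the median of all pairs. Because the libraries fell into separate groups of 5 and 3, no correlation over them is given.

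The least steady ratio within the cluster was that of miR-503 to miR-542-3p, which are direct neighbours in the genome. Its log2 ratio was −0.14, −3.13, 1.54 and −3.64 for PBS 1 to 4, and −3.99, −2.95, 2.68 and −4.53 for METH 1 to 4. The reads behind the extremes were 22 of miR-503 to 3 of miR-542-3p in METH 3 and 51 to 1191 in METH 4. The ratio thus spanned a 149-fold range, with PBS 1, PBS 3 and METH 3 above all others. Its spread of 2.75 exceeded the 0.48 that counting error alone would give, and 90.8% of all pairs of tested known miRNAs had a smaller one. Without the 3 libraries the spread was 0.64.

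Other cluster pairs held closer together in the 5 remaining libraries. miR-503 to miR-450a-5p had a spread of 1.44 over 8 libraries and of 0.40 over the 5, where counting error over all 8 gave 0.34. miR-542-3p to miR-450a-5p, whose genes also lie side by side, had 1.39 and 0.51. Its log2 ratio was lowest in METH 3 at −4.59 and PBS 3 at −3.36 and highest in METH 4 at −0.30. The pairs with miR-424-5p had larger spreads in the 5 libraries, at 1.41 with miR-503, 1.13 with miR-542-3p and 1.46 with miR-450a-5p. Their counting error, taken over all 8 libraries, was 0.77, 0.77 and 0.70.

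Within the seed family, 2 pairs had smaller spreads than the other 4 over the 8 libraries, but not all of that order held without PBS 1, PBS 3 and METH 3. miR-15b-5p to miR-503 had a spread of 0.63, with a counting error of 0.35, and 7.77% of all pairs were smaller. Its log2 ratio was 3.75, 1.87, 3.38 and 3.49 for PBS 1 to 4, and 2.76, 3.06, 3.53 and 3.72 for METH 1 to 4, with PBS 2 the lowest. miR-15a-5p to miR-424-5p had a spread of 0.68, which does not exceed its counting error of 0.80, and 10.3% of all pairs were smaller. The other 4 seed pairs had spreads of 1.59 to 1.83. miR-15a-5p to miR-15b-5p, the closest relatives by name, had 1.61, with log2 ratios of −3.67, −2.38, −5.40 and −2.06 for PBS 1 to 4 and −2.20, −2.89, −5.56 and −1.09 for METH 1 to 4. Without the 3 libraries, the spreads were 0.66 for miR-15a-5p to miR-15b-5p, 0.72 for miR-15b-5p to miR-503, 0.61 for miR-15a-5p to miR-424-5p, 0.73 for miR-15b-5p to miR-424-5p and 1.21 for miR-15a-5p to miR-503.

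**Figure D3:**
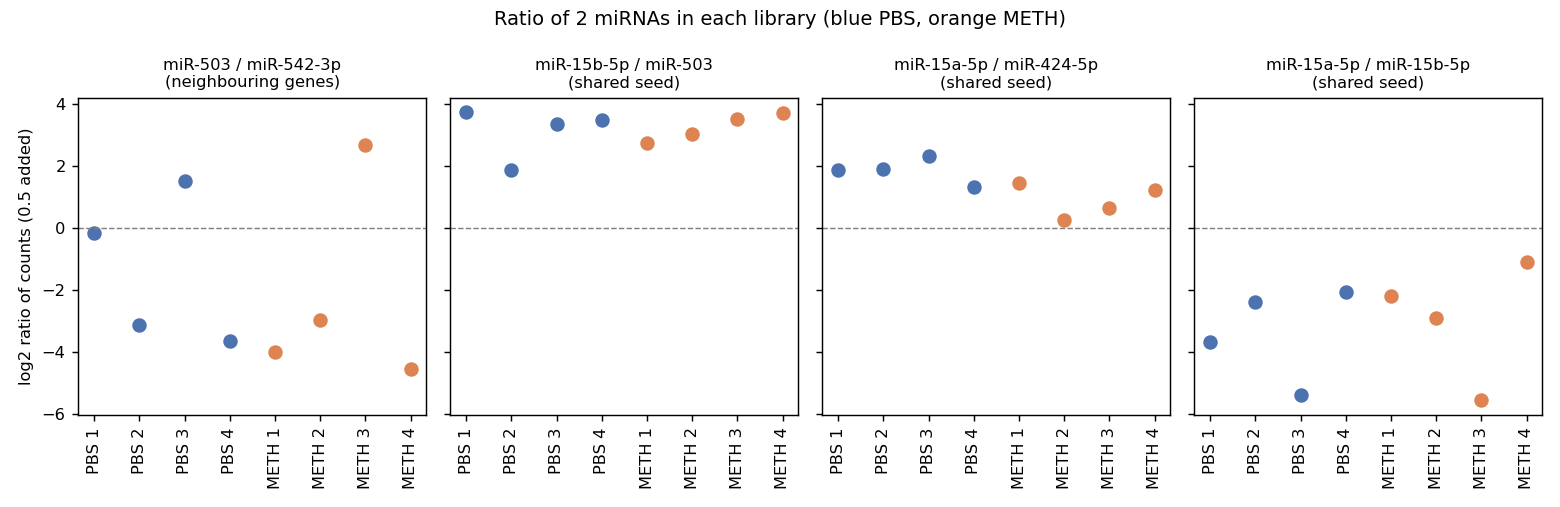
Log2 ratio of read counts (0.5 added) of 2 miRNAs in each of the 4 PBS (blue) and 4 METH (orange) libraries, for 1 pair of genomic neighbours and 3 pairs with a shared seed. miR-503 to miR-542-3p, the least steady cluster pair over 8 libraries, runs from −4.53 to 2.68. miR-15b-5p to miR-503, the steadiest seed pair, stays between 1.87 and 3.75. Without PBS 1, PBS 3 and METH 3 their spreads (SD of the log2 ratio) were 0.64 and 0.72.

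**Figure D4:**
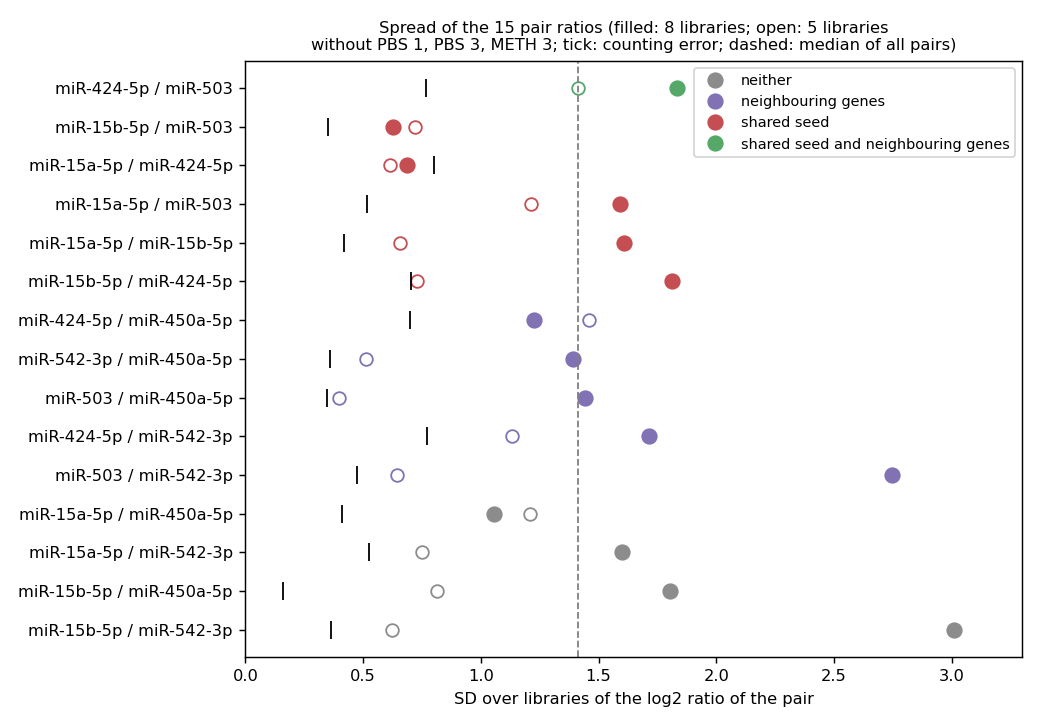
SD over libraries of the log2 ratio of each of the 15 pairs, over all 8 libraries (filled) and over the 5 without PBS 1, PBS 3 and METH 3 (open). The tick is the SD from counting error and the dashed line the median of 1.41 over all pairs of tested known miRNAs; seed pairs and cluster pairs lie on both sides of the line.

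No pair ratio differed between METH and PBS beyond the spread. The exact two-sided permutation p ran from 0.0571 to 1 over the 15 pairs, where 0.0286 is the smallest that 70 splits can give, and the adjusted p over the 15 from 0.857 to 1. The lowest belonged to miR-15a-5p over miR-424-5p. Its log2 ratio was 1.90, 1.93, 2.32 and 1.33 for PBS 1 to 4 and 1.47, 0.26, 0.65 and 1.23 for METH 1 to 4, so that only METH 1 and PBS 4 overlapped. The mean log2 ratio was 1.87 ± 0.41 in PBS and 0.90 ± 0.55 in METH (SD, n = 4 each), a difference of −0.97 (exact permutation p = 0.0571). With 2 added to each count in place of 0.5, the difference was −0.71 (exact permutation p = 0.0286, adjusted over the 15 pairs 0.429). Without PBS 1, PBS 3 and METH 3 the lowest exact permutation p of the 15 was 0.4, where 0.2 is the smallest that design can give.

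The known miRNAs tested were ranked by the same spread against each member over 8 libraries, a description in which the closest of over 100 are named. For miR-15b-5p these were miR-125a-5p (0.26), let-7e-5p (0.28) and miR-191-5p (0.29), and miR-503 came in place 17 of 112, or 60 without the 3 libraries. For miR-503 they were miR-99b-5p (0.23), miR-155-5p (0.40) and miR-652-3p (0.41), with miR-15b-5p in place 8, miR-450a-5p in place 72 and miR-542-3p in place 102. Without the 3 libraries these places were 37, 7 and 29, and miR-450a-5p, at 0.40, was closer to miR-503 than miR-652-3p, at 0.42. For miR-15a-5p they were miR-30a-5p (0.33), miR-34a-5p (0.40) and miR-20a-5p (0.45), with miR-15b-5p in place 86, or 44 without the 3 libraries. Without those libraries, the closest 3 of miR-15b-5p, in the order named, were in places 3, 15 and 12. Those of miR-503 were in places 1, 2 and 9, and those of miR-15a-5p in places 2, 15 and 18.

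miR-542-3p was followed most closely by miR-21-5p (0.58), miR-101 (0.63) and let-7a-3p (0.64), with its neighbours miR-450a-5p and miR-503 in places 24 and 90 of 112. Without the 3 libraries those places were 23 and 48, and miR-450a-5p, at 0.51, was closer than miR-21-5p, at 0.55, and miR-101, at 0.58. For miR-450a-5p the closest were miR-425-5p (0.30), miR-26a-2-5p (0.53) and miR-671-5p (0.56), with miR-542-3p in place 59, or 11 without the 3 libraries. For miR-424-5p they were miR-30b-5p (0.59), miR-15a-5p (0.68) and miR-29a-3p (0.71) of 113, with miR-503 in place 90, or 86 without the 3 libraries. Without those libraries, the closest 3 of miR-542-3p, in the order named, were in places 29, 33 and 17. Those of miR-450a-5p were in places 2, 18 and 16, and those of miR-424-5p in places 1, 7 and 20. Ratios with few reads spread more from counting alone, and the part of this in the places of miR-424-5p and miR-503 was not tested.

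Among miRNAs listed by family name for the passage from G1 into S phase, the count of estimates above 0 turned on the scaling. Of 15 tested miRNAs listed as restraining it, miR-15a-5p, miR-15b-5p and miR-503 among them, 9 had log2 fold changes above 0 and 6 below, with a median of 0.06. This list also holds let-7a-3p, the opposite arm to let-7a-5p, which was at 0.30 and counts among those above 0. Of 8 tested miRNAs listed as promoting it, such as miR-17-5p and miR-221-3p, 8 were above 0, with a median of 0.39. Over all tested miRNAs, 126 of 166 were above 0, with a median of 0.21. None of either list passed. With total counts as the scaling, 4 of the 15 and 4 of the 8 were above 0, with medians of −0.27 and −0.02, beside 64 of all 166, with a median of −0.14.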

How the data were processed

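The authors deposited 1 table with raw read counts and TPM per miRNA and library, per the file headers; the sources used here do not give the aligner, miRNA reference or build. The deposited TPM are each library's counts scaled to 1 total over the 384 miRNAs, with no length term. Libraries were made by ligating adapters to both RNA ends, PCR and gel selection, per the labels' protocols, which name no molecular identifiers, so reads are not independent molecules. Groups came from the sample titles.

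Counts were tested with edgeR 4.0.16 (R 4.3.3): TMM, filterByExpr (minimum count 10, minimum total 15; 166 miRNAs kept), robust quasi-likelihood F test, Benjamini-Hochberg over the 166 at 0.05. A member below the filter has its value from the fit with no filter. The SE comes from the F statistic. Left-out libraries kept the same 166. Pair ratios were compared with exact permutation tests (scipy 1.17.1), doubling the smaller one-sided p. Counting error is the root mean over libraries of 1/a + 1/b, divided by ln 2, with a and b the counts plus 0.5. Both tests were tested on simulated data. The named miRNAs are the 6 members, listed relatives in the table, and the 3 most alike of each member. Alternatives were DESeq2 1.42.0, 3 scalings, no filter, the replicate block and left-out libraries. The members and lists were chosen with earlier results of these data known.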

Additional observations from a re-analysis of the deposited data

Results flagged for a closer look

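Of 46 groups of 4 values examined, 2 held a library far from the other 3, where chance gives about 1 in 20. miR-15b-5p was at 681 normalised CPM in METH 3 and at 119 to 198.9 in the other METH libraries. miR-497-5p was at 38.6 normalised CPM in PBS 1, from 30 reads, and at 0.81 to 3.95 in the other PBS libraries. Both libraries are among the 3 that stood apart on the first principal component.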

How the results depend on the processing

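The number of called miRNAs was 0 under all 16 alternatives. The log2 fold changes of miR-15a-5p, miR-424-5p, miR-542-3p and miR-450a-5p stayed above 0 under every alternative run, and none was called. That of miR-15b-5p, 0.19, was −0.011 with DESeq2 and with its size factors, −0.019 with upper quartile factors, −0.023 with no filter, −0.35 with total counts, and −0.73 to 0.64 with 1 library left out. That of miR-503, 0.06, was −0.14 with DESeq2 and with its size factors, −0.10 with upper quartile factors and without the 3 libraries that stood apart, −0.37 with total counts, −0.11 with no filter, and −0.63 to 0.42 with 1 library left out. The cause was not tested.

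With 2 added to each count, 1 pair ratio had a permutation p under 0.05, against 0. With any library left out, or in pairs, that test cannot go below 0.05. The median spread was 0.72 for seed pairs and 0.89 for cluster pairs without the 3 libraries, an alternative chosen after seeing the data.

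The replicate numbers were not taken as pairs, because same-numbered deviations correlated at −0.25, 0.54, 0.77 and 0.89 and not all above 0.1. PBS 2, PBS 3 and PBS 4 were most like the METH library of their own number, and PBS 1 was most like METH 3. With the replicate block 0 miRNAs were called, miR-503 had −0.042 and 0 pair ratios had a p under 0.05. Depth limits miR-424-5p most, which had 1 to 15 reads in each library numbered 1, 2 or 3.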
